A study of Mus musculus with 9 samples.

Results

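Expression of 9 genes that set cell fate in the intestinal epithelium was described in colonic mucosa of Apc-mutant mice with and without engineered p16 epimutation. The genes were taken by symbol from the deposited RNA-seq table, in which each of the 9 symbols matched 1 of 54146 listed genes. They are the receptor Notch1, the Notch ligands Dll1, Dll4 and Jag1, the Notch target Hes1, the secretory lineage factor Atoh1, the homeobox factors Cdx1 and Cdx2, and Klf4. All 9 passed the filter on low values, with 116 to 16705 reads per gene and mouse.

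The study compared 5 ApcMin/+ mice (2 females and 3 males) with 4 ApcMin/+; p16cis/cis mice (3 females and 1 male), all C57BL/6J and 15 wk old, to find genes that p16 epimutation alters in the mucosa. Every mouse, controls included, is heterozygous for the Min mutation of Apc, which starts intestinal adenomas. The p16cis/cis mice also carry on both alleles a knocked-in cis-element that spreads DNA methylation over the p16 promoter. Both changes are in the germline, so they are not limited to the epithelium. Each mouse gave 1 library, with 13523500 to 17885918 reads on genes. The labels name colonic mucosa and the methods name crypts, and 8 epithelial markers such as Epcam and Vil1 summed to a normalized count of at least 258785 in every mouse.

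2 facts of the whole series touch the values below. Cdkn2a, the gene of p16, was listed at 0 in 9 of 9 mice, so these libraries carry no check of p16 silencing. The mitochondrial share of reads was 8.74% to 15.6% in ApcMin/+ and 19.3% to 29.8% in ApcMin/+; p16cis/cis libraries, so the share and the genotype cannot be told apart. In bulk tissue, fewer cells of a type and less RNA per cell also cannot be told apart.

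Notch signaling passes between touching cells. A ligand of the Delta-like (Dll) or Jagged (Jag) family on 1 cell binds a Notch receptor on its neighbor, the receptor is cut, and its inner part enters the nucleus, where it joins the DNA-binding protein Rbpj and switches on repressors such as Hes1. In intestinal crypts, Hes1 represses Atoh1, the factor that commits progenitors to the goblet, enteroendocrine and other secretory fates. Cells with active Notch remain progenitors or become absorptive cells, and cells that present ligand become secretory. Cdx1 and Cdx2 give the epithelium its intestinal identity, and Klf4 is linked to cell cycle exit and goblet cell maturation.

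Of the 9 genes, Dll4 rose in ApcMin/+; p16cis/cis mice, and 0 fell. Count tests of edgeR and DESeq2, run on recovered reads, also passed Dll4 and no other of the 9, where they passed 17.7% and 18.9% of all genes. A gene passed at a Benjamini-Hochberg adjusted p under 0.05 over all 14410 genes tested by limma, of which 16.9% passed in either direction, 8.14% as higher and 8.75% as lower. At an unadjusted p under 0.05 the limma count was also 1 of 9, where 4779 of the 14410 genes were under it. The members thus passed no more often than all genes. Log2 fold changes of the 9 genes ran from -0.48 for Hes1 to 0.49 for Dll4, with 5 above 0 and 4 below, and 0 passed with a change over 2-fold, where 1.83% of all genes did as higher and 1.64% as lower. Their median was 0.15, against -0.0041 over all genes tested.

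**Figure D1:**
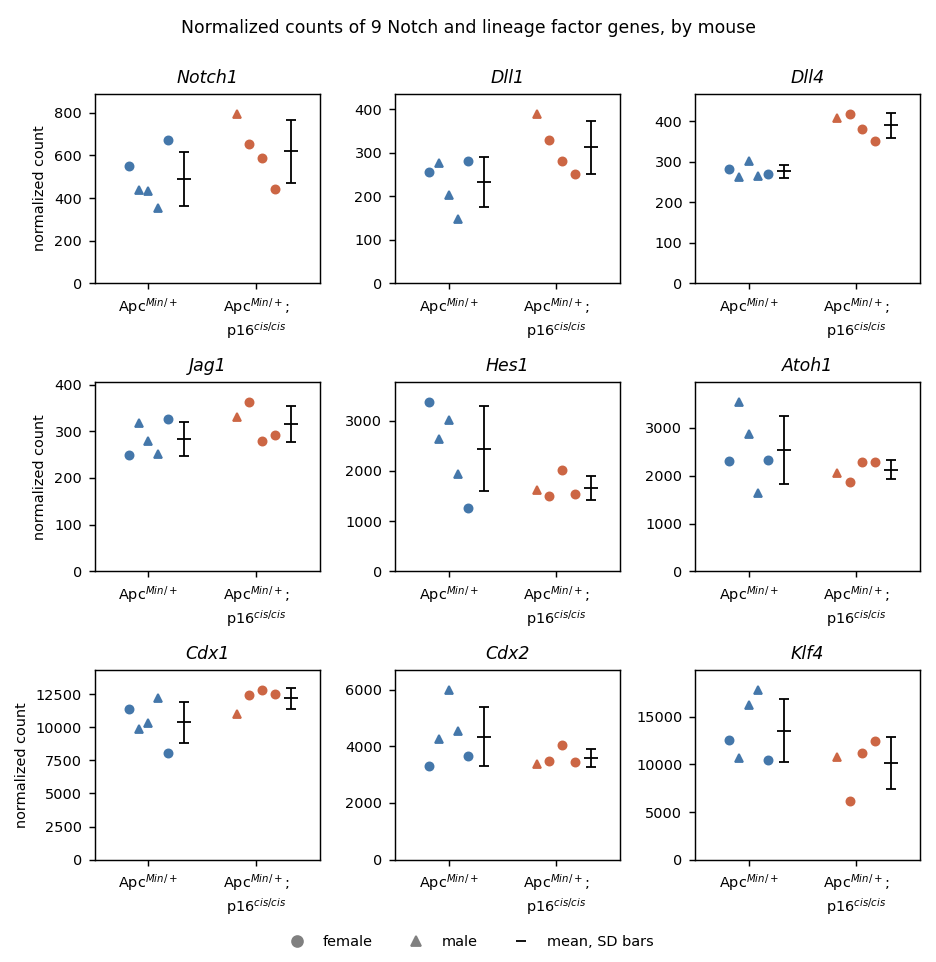
Normalized count (vertical axis, from 0) of each of the 9 genes in every mouse, with ApcMin/+ mice in blue and ApcMin/+; p16cis/cis mice in orange, circles for females, triangles for males, and bars for the mean and SD. In Dll4 the lowest ApcMin/+; p16cis/cis mouse (351) is above the highest ApcMin/+ mouse (302), and in the other 8 genes the genotypes overlap.

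Dll4 (ENSMUSG00000027314.6) encodes a Delta-like ligand that acts in crypts and is also made by the endothelium of growing vessels. In the GENCODE M21 annotation of GRCm38 it is a protein-coding gene on the plus strand of chromosome 2, from 119325784 to 119335962. Its normalized count was 283, 262, 302, 266 and 270 in ApcMin/+ replicates 1 to 5, and 409, 418, 382 and 351 in ApcMin/+; p16cis/cis replicates 1 to 4. The groups do not overlap, a separation in this direction that 7.24% of all genes tested showed. The mean rose from 277 ± 16.4 (SD, n = 5) to 390 ± 30.2 (SD, n = 4), which is 1.41-fold on the log2(normalized count + 1) scale of the fit (95% interval 1.19 to 1.67, log2 fold change 0.49, SE 0.11, adjusted p = 0.0147 by limma). The adjusted p was 0.016 by edgeR and 0.001 by DESeq2, and it stayed under 0.05 in limma with any 1 of the 9 mice left out (0.0142 to 0.0485).

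Sex did not order the Dll4 counts. Females had 270 to 283 in ApcMin/+ and 351 to 418 in ApcMin/+; p16cis/cis mice, and the only ApcMin/+; p16cis/cis male had 409 against 262 to 302 in the 3 ApcMin/+ males. With sex as a covariate the log2 fold change was 0.50 (adjusted p = 0.0332 by limma), in a fit that passed 1 of the 9 genes and 9.97% of all. Among females alone it was 0.47 and did not pass (adjusted p = 0.145 by limma), in a fit that passed 0 of the 9 and 7.09% of all. With the mitochondrial share as a covariate it was 0.50 with an adjusted p of 0.848, a fit in which 0 of all genes passed in limma and 798 had an unadjusted p under 0.05. After a correction for GC content and exon length, chosen after seeing the data, Dll4 had 0.40 (adjusted p = 0.0403 by limma) and was the 1 gene of the 9 to pass, beside 12.2% of all. With the replicate number as a block 5 of the 9 passed, Dll4, Dll1 and Notch1 as higher and Hes1 and Klf4 as lower, beside 14.4% of all, but the numbers name different mice.

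The endothelial marker sum did not separate the genotypes. The summed normalized count of 8 markers (Pecam1, Cdh5, Kdr, Vwf, Emcn, Plvap, Tie1 and Cldn5) was 161 to 350 in ApcMin/+ and 154 to 290 in ApcMin/+; p16cis/cis mice (log2 difference -0.25, p = 0.444 by a two-sided exact permutation test). Pecam1, Vwf and Plvap passed the filter on low values, with log2 fold changes of -0.92, 0.43 and 0.75 that did not pass the test in limma. The sum was carried mainly by Vwf, with a mean of 93.3 in ApcMin/+ and 133 in ApcMin/+; p16cis/cis mice. The other 5 markers were under the filter and had lower means in ApcMin/+; p16cis/cis mice. The defining markers Cdh5 and Kdr had means of 11.5 and 12.0 in ApcMin/+ mice and were at 0 in all 4 mice of the other genotype, and Emcn went from 4.74 to 0.32, Tie1 from 13.4 to 2.23 and Cldn5 from 8.60 to 1.07. The mouse with the highest sum in that genotype, replicate 4, had its lowest Dll4 count. The fibroblast and smooth muscle sum was lower in those mice, at 59.5 to 233 against 100.4 to 595 (p = 0.0317 by a two-sided exact permutation test), and its part in the Dll4 difference was not tested.

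**Figure D2:**
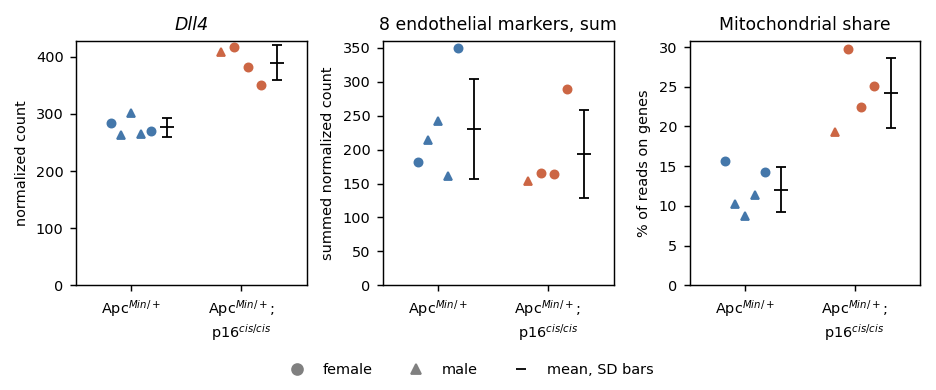
By mouse, the normalized count of Dll4 (left), the summed normalized count of 8 endothelial markers (middle) and the percent of reads on mitochondrial genes (right), with circles for females, triangles for males, and bars for the mean and SD, all axes from 0. Dll4 and the mitochondrial share separate the genotypes, and the endothelial sum, 161 to 350 against 154 to 290, does not.

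The bases before the start of Dll4 and Notch1 are shown because they hold a match to the N-box, CACNAG, a motif that Hes1 binds. They are the 250 bases upstream of the RefSeq start on GRCm38.p6, read 5′ to 3′ along the gene, for Dll4 from chr2:119325534-119325783 on the plus strand and for Notch1 from chr2:26503823-26504072 on the minus strand. Capitals mark the match, which begins 75 bases before the start in Dll4 and 108 in Notch1.
Dll4: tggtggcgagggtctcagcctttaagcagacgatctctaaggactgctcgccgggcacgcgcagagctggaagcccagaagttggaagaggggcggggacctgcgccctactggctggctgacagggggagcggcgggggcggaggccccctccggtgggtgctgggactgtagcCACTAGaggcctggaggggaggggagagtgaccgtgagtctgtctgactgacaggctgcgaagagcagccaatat
Notch1: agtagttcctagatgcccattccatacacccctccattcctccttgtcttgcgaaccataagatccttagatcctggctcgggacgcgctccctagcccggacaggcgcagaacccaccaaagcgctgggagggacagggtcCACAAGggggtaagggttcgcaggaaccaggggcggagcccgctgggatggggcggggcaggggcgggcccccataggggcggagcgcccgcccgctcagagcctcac

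RefSeq windows on chromosome 18, where Cdx1 lies, were left out of the search. Of the 9 genes, 7 had a window among the rest, with 8 windows since Dll1 has a pair of starts. The N-box, searched on both strands, was in 2 of the 8 windows and in 36.7% of all 32851 windows of that length outside chromosome 18. The core of the Rbpj motif, TGGGAA, was in 0 of the 8 and in 21.6% of all. The motifs can share letters at their ends, and none of the 8 windows held both. These matches describe the letters of the windows and say nothing of binding. The start used for Notch1 lies inside the GENCODE gene.

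Dll1 (ENSMUSG00000014773.13, chromosome 17, 15367354 to 15376872, minus strand) encodes the Delta-like ligand that acts with Dll4 in crypts and marks secretory progenitors. Its normalized count was 256, 276, 202, 147 and 281 in ApcMin/+ replicates 1 to 5, and 389, 329, 281 and 251 in ApcMin/+; p16cis/cis replicates 1 to 4. Replicates 1 and 2 of the latter were above all ApcMin/+ mice, and replicates 3 and 4 were within the ApcMin/+ range. The means were 232 ± 56.9 (SD, n = 5) and 312 ± 60.3 (SD, n = 4). Its log2 fold change of 0.44 did not pass (95% interval -0.0065 to 0.90, adjusted p = 0.156 by limma). Among females alone the log2 fold change was 0.087. Its gene span shares 1873 bases with the opposite-strand noncoding gene A930024N18Rik, listed at 25.5 to 50.1. Reads on exons of both cannot be told apart without strand information, which the sources used here do not give. The span of Dll4 shares 411 bases with the opposite-strand gene Gm14207. That of Notch1 shares 1488 and 414 with the opposite-strand genes 0610009E02Rik and Gm13568. These spans include introns, and shared exon bases were not counted.

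Jag1 (ENSMUSG00000027276.7, chromosome 2, 137081456 to 137116644, minus strand), a ligand of the Jagged family, had the smallest log2 fold change of the 9. It had 249, 318, 279, 250.4 and 326 normalized counts in ApcMin/+ replicates 1 to 5 and 330, 362, 279 and 291 in ApcMin/+; p16cis/cis replicates 1 to 4. The ranges overlap over most of their length, and the lowest ApcMin/+; p16cis/cis mouse sat at the ApcMin/+ median. The log2 fold change was 0.15 (95% interval -0.15 to 0.45, adjusted p = 0.480 by limma), an interval that leaves out a change of 2-fold in either direction.

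Notch1 (ENSMUSG00000026923.15, chromosome 2, 26457903 to 26516663, minus strand) encodes a receptor used by crypt progenitors. Its normalized count was 551, 439, 432, 352 and 673 in ApcMin/+ replicates 1 to 5, and 794, 656, 589 and 440 in ApcMin/+; p16cis/cis replicates 1 to 4. Both ApcMin/+ females were above all 3 ApcMin/+ males. The log2 fold change over all mice was 0.34 (SE 0.20, 95% interval -0.098 to 0.79, adjusted p = 0.262 by limma). The direction differed between the fit over all mice and the fit on females. Among females the mean was 612 in 2 ApcMin/+ females and 562 in 3 ApcMin/+; p16cis/cis mice (log2 fold change -0.14, adjusted p = 0.710), while the 1 male of the latter genotype had 794 against a mean of 408 in 3 males. The interaction of genotype with sex was 1.10 on the log2 scale (SE 0.32, unadjusted p = 0.00643 by limma), and it did not pass over all genes tested (adjusted p = 0.722). The interaction rests on 1 male and does not show a dependence on sex.

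Hes1 (ENSMUSG00000022528.8, chromosome 16, 30064384 to 30067796, plus strand) is the repressor through which Notch blocks the secretory fate. Its normalized count was 3368, 2645, 3007, 1940 and 1262 in ApcMin/+ replicates 1 to 5, and 1616, 1491, 2014 and 1543 in ApcMin/+; p16cis/cis replicates 1 to 4. The 3 highest mice were all ApcMin/+, but so was the lowest, replicate 5. The means were 2444 ± 846 (SD, n = 5) and 1666 ± 237 (SD, n = 4). The log2 fold change of -0.48 did not pass (95% interval -1.01 to 0.046, adjusted p = 0.188 by limma). Without ApcMin/+ replicate 5 it was -0.70 with an adjusted p of 0.0224, so 1 mouse decides this call. In the 8 other fits with 1 mouse left out it did not pass.

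Atoh1 (ENSMUSG00000073043.5, chromosome 6, 64729125 to 64731245, plus strand) stands below Hes1 in this pathway and drives secretory commitment. It had normalized counts of 2294, 3530, 2857, 1627 and 2321 in ApcMin/+ replicates 1 to 5, and 2058, 1866, 2283 and 2287 in ApcMin/+; p16cis/cis replicates 1 to 4. Every ApcMin/+; p16cis/cis mouse lay inside the ApcMin/+ range. The log2 fold change was -0.21 (95% interval -0.61 to 0.19, adjusted p = 0.467 by limma), and it was 0.15 with the mitochondrial share as a covariate. Among the cells downstream of Atoh1, 8 goblet markers such as Muc2 summed to 285741 to 450365 in ApcMin/+ and 306947 to 601479 in ApcMin/+; p16cis/cis mice (p = 0.413 by a two-sided exact permutation test). Of these 8 markers 1 passed in limma, Spink4, as higher. The 7 enteroendocrine markers summed to 5002 to 9928 in ApcMin/+ and 6350 to 11085 in ApcMin/+; p16cis/cis mice. For this sum p = 0.889 by a two-sided exact permutation test. Of these 7, Insl5 passed in limma as higher, and Chga and Chgb as lower. Reg4, of deep crypt secretory cells, passed as higher (log2 fold change 1.42, adjusted p = 0.0483 by limma). Of 5 tuft cell markers tested 0 passed in limma.

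Cdx1 (ENSMUSG00000024619.8, chromosome 18, 61018862 to 61036199, minus strand) and Cdx2 (ENSMUSG00000029646.3, chromosome 5, 147300805 to 147307270, minus strand) are caudal-type homeobox factors. Cdx1 had normalized counts of 11381, 9860, 10341, 12216 and 8093 in ApcMin/+ replicates 1 to 5, and 10979, 12461, 12798 and 12520 in ApcMin/+; p16cis/cis replicates 1 to 4. The 3 highest mice were the ApcMin/+; p16cis/cis females, and the male was within the ApcMin/+ range. Its log2 fold change was 0.24 (95% interval -0.044 to 0.53, adjusted p = 0.221 by limma). After the GC content and exon length correction it was -0.043, so no direction is given for Cdx1.

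Cdx2 had normalized counts of 3296, 4245, 5969, 4528 and 3663 in ApcMin/+ replicates 1 to 5, and 3355, 3481, 4044 and 3450 in ApcMin/+; p16cis/cis replicates 1 to 4. The ApcMin/+ males were the 3 highest mice, and the 2 ApcMin/+ females lay within or just below the range of the other genotype. The log2 fold change was -0.25 over all mice (95% interval -0.59 to 0.086, adjusted p = 0.285 by limma) 0.070 among females alone and 0.23 with the mitochondrial share as a covariate, so its direction depended on the mice and terms used.

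Klf4 (ENSMUSG00000003032.8, chromosome 4, 55527143 to 55532466, minus strand) is a zinc finger factor of differentiated epithelium. Its normalized count was 12587, 10645, 16297, 17787 and 10515 in ApcMin/+ replicates 1 to 5, and 10746, 6141, 11219 and 12495 in ApcMin/+; p16cis/cis replicates 1 to 4. The 2 highest mice were ApcMin/+ males and the lowest was ApcMin/+; p16cis/cis replicate 2. The log2 fold change was -0.43 (SE 0.22, 95% interval -0.92 to 0.055, adjusted p = 0.1998 by limma). It was 0.38 with the mitochondrial share as a covariate, so its direction is not given either. Markers of absorptive colonocytes had a lower sum in ApcMin/+; p16cis/cis mice, at 89407 to 116583 against 127655 to 270298 (p = 0.0159 by a two-sided exact permutation test, the lowest that 5 mice against 4 can give). The largest part of this sum came from Car1, with a mean of 92501 in ApcMin/+ and 51029 in ApcMin/+; p16cis/cis mice. Car1 did not pass by itself (log2 fold change -0.81, adjusted p = 0.0750 by limma). Of the 8 markers 1 passed in limma, Slc26a3, as lower, and Ms4a10 alone had a log2 fold change above 0 (0.32). The part of this sum in the Klf4 difference was not tested.

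**Figure D3:**
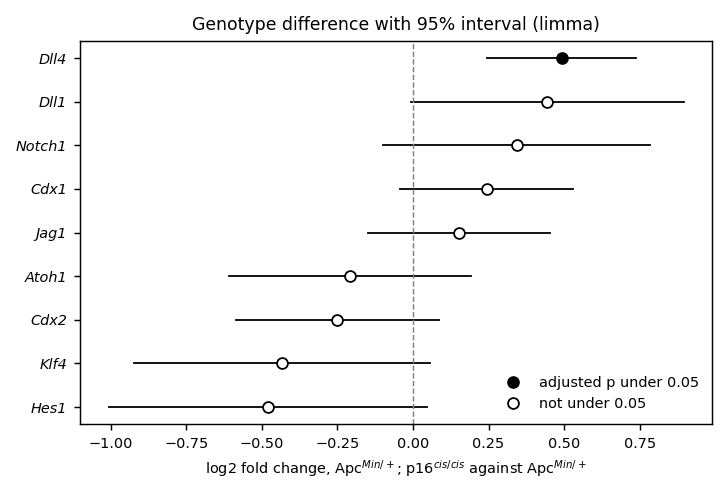
Log2 fold change of each gene, ApcMin/+; p16cis/cis against ApcMin/+ (horizontal axis), with its 95% interval from limma. The point is filled for an adjusted p under 0.05, which only Dll4 has (0.49, interval 0.25 to 0.74), and the intervals of the other 8 genes include 0.

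Per kb of annotated exon, the transcription factors were more abundant than the ligands and the receptor. In ApcMin/+ mice, Cdx1 had a level of 5930 ± 898 normalized counts per kb (SD, n = 5), Klf4 4449 ± 1089, Cdx2 1920 ± 456, Hes1 1200 ± 415 and Atoh1 1191 ± 335. The levels of Dll4 (71.9 ± 4.26), Dll1 (55.1 ± 13.5), Jag1 (48.8 ± 6.22) and Notch1 (34.4 ± 8.76) were all lower. Neighbors in this order had overlapping ranges over mice, except Klf4 above Cdx2, Atoh1 above Dll4 and Dll4 above Dll1. In ApcMin/+; p16cis/cis mice the order differed in that Atoh1 (1001 ± 95.3 per kb, n = 4) was above Hes1 (818 ± 116), with overlapping ranges, and Dll4 at 101 ± 7.85 overlapped Dll1 at 74.0 ± 14.3. Exons of all annotated transcripts were joined for the length, so levels of genes with rarely used exons are understated.

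The other genes of the Notch pathway moved in both directions. Of 55 listed genes 49 were tested, and 3 rose and 5 fell in ApcMin/+; p16cis/cis mice by limma, which is 8 of 49 beside 16.9% of all genes. Their median log2 fold change was -0.046. Among the other receptors and ligands 0 passed in limma, also at an unadjusted p under 0.05. Notch2 had a log2 fold change of -0.075, Notch4 0.40 and Jag2 -0.21. Notch3 and Dll3 were under the filter, with at most 14.3 and 25.5 normalized counts in any mouse. In the nucleus, Rbpj, the DNA-binding partner of the cut receptor, had 276 ± 19.0 (SD, n = 5) and 299 ± 27.9 (SD, n = 4) normalized counts, a log2 fold change of 0.11. Of 7 targets other than Hes1, Hes5, Hey1, Hey2 and Heyl were under the filter and 0 of the other 3 passed in limma, also at an unadjusted p under 0.05. Hes6 had 1626 ± 154 (SD, n = 5) and 1876 ± 338 (SD, n = 4) normalized counts, and Nrarp 127 ± 41.4 and 109.9 ± 22.4.

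Among the genes that fell were 2 of the 4 listed genes that act on the ligands. These 2, Mib1 and Neurl1b, are both E3 ubiquitin ligases that let a ligand pull on its receptor. The other 2, Mib2 and Neurl1a, had log2 fold changes of 0.33 and 0.32 that did not pass in limma. Mib1 fell from 973 ± 197 (SD, n = 5) to 670 ± 108 (SD, n = 4) normalized counts (log2 fold change -0.53, adjusted p = 0.0385 by limma), and Neurl1b from 855 ± 75.6 to 680 ± 40.9 (log2 fold change -0.33, adjusted p = 0.0466 by limma). Of the 9 fits with 1 mouse left out, Mib1 passed in 2 and Neurl1b in 1. The nuclear cofactors Snw1 (log2 fold change -0.55, adjusted p = 0.0232 by limma) and Kat2b (-0.46, adjusted p = 0.0243) fell as well. Itch, a ubiquitin ligase that sends Notch to degradation, had the smallest p of the list, with a fall from 1668 ± 163 to 1098 ± 89.9 (log2 fold change -0.60, SE 0.10, adjusted p = 0.00460 by limma). The genes that rose were Dtx3, of the Deltex ligase family (114 ± 23.7 to 222 ± 44.2, log2 fold change 0.96, adjusted p = 0.00993 by limma), Rfng, a Fringe glycosyltransferase that changes how Notch binds its ligands (528 ± 54.8 to 763 ± 90.6, log2 fold change 0.53, adjusted p = 0.0127), and Spen, a corepressor that acts with Rbpj (log2 fold change 0.42, adjusted p = 0.0429). With sex as a covariate 3 of the 8 still passed, Itch, Dtx3 and Rfng, and these 3 also passed with any 1 mouse left out. The list count was also 3 without ApcMin/+ replicate 2, without ApcMin/+ replicate 3 and without ApcMin/+; p16cis/cis replicate 2, and 5 without ApcMin/+ replicate 1 or ApcMin/+; p16cis/cis replicate 4.

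**Figure D4:**
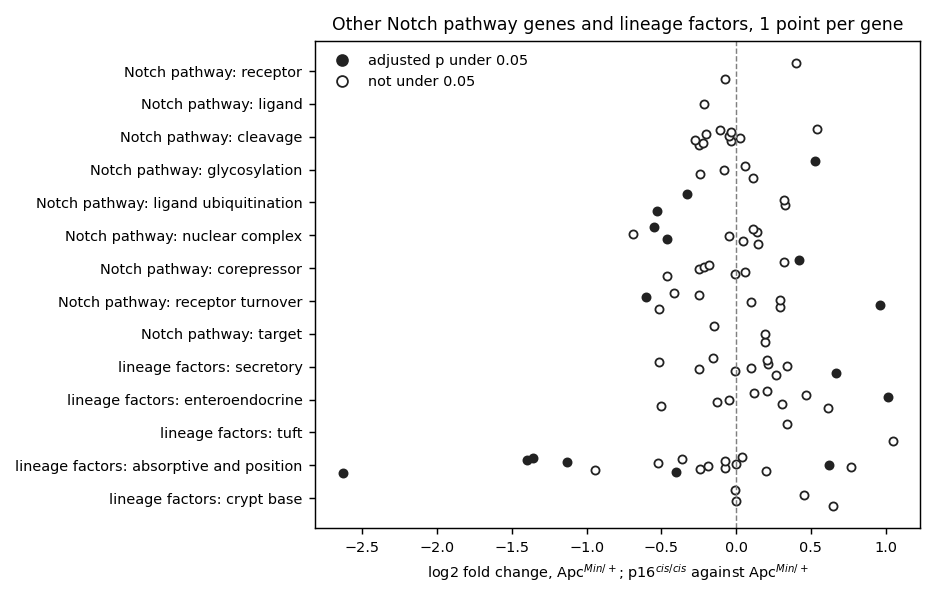
Log2 fold change, ApcMin/+; p16cis/cis against ApcMin/+ (horizontal axis), of the 49 other Notch pathway genes and 42 other lineage factors tested, 1 point per gene and 1 line per role. Filled points have an adjusted p under 0.05 by limma, and 5 of them lie to the left in the line of absorptive and position factors, with Creb3l3 the farthest at -2.63.

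Of 42 other transcription factors of colonic lineages, all tested, 3 rose and 5 fell by limma, again 8 beside a background of 16.9%, with a median log2 fold change of -0.0022. The 5 that fell were all among the 17 absorptive and position factors. They were Creb3l3, a factor of lipid metabolism (516 ± 373 to 69.6 ± 23.1 normalized counts, log2 fold change -2.63, SE 0.44, adjusted p = 0.00431 by limma), Maf (204 ± 18.9 to 79.9 ± 26.4, log2 fold change -1.40, adjusted p = 0.00339), Prdm1, also called Blimp1 (71.2 ± 18.5 to 27.9 ± 11.4, log2 fold change -1.36, adjusted p = 0.0121), Isx, an intestinal homeobox factor that controls vitamin A uptake (2065 ± 800.4 to 912 ± 219, log2 fold change -1.13, adjusted p = 0.0126), and Ehf (log2 fold change -0.40, adjusted p = 0.0443). In each of these 5 the lowest ApcMin/+ mouse was above the highest ApcMin/+; p16cis/cis mouse, a separation that 8.95% of all genes tested showed. The sum of absorptive colonocyte markers was also lower in these mice, as given beside Klf4. The sum of 8 small intestine markers was 580 to 1932 in ApcMin/+ and 356 to 690 in ApcMin/+; p16cis/cis mice (p = 0.111 by a two-sided exact permutation test), and 1 of its 4 tested markers, the brush border enzyme Sis, fell from 87.8 ± 10.6 to 12.9 ± 8.54 (log2 fold change -3.04, adjusted p = 0.00509 by limma). The part of these sums in the fall of the 5 factors was not tested. Leukocyte markers, 9 in all, summed to 169 to 1805 in ApcMin/+ and 345 to 540 in ApcMin/+; p16cis/cis mice, with 2 passing as lower in limma, Lyz2 and the plasma cell gene Jchain. Maf and Prdm1 are also used by leukocytes, and the part of these cells in their fall was not tested.

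Other identity factors of that group did not pass, with log2 fold changes of -0.0028 for Hnf4a and -0.072 for Klf5. Among secretory factors Creb3l1 rose from 11998 ± 1151 to 19119 ± 2657 (log2 fold change 0.67, adjusted p = 0.00814 by limma), while Spdef and Gfi1, which act below Atoh1 in goblet cell formation, had log2 fold changes of 0.21 and 0.21 that did not pass. The enteroendocrine factor Nkx2-2 rose (46.7 ± 13.4 to 99.2 ± 50.0, log2 fold change 1.01, adjusted p = 0.0491 by limma), and its call, like that of Ehf, was lost in 8 of 9 fits with 1 mouse left out. Both tuft cell factors and all 4 crypt base factors failed to pass, with Ascl2, a Wnt-driven stem cell factor, at 0.65 (adjusted p = 0.0990).

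The genes most like each of the 9 over the mice were taken by Pearson correlation on log2(normalized count + 1), over 9 mice that differ in genotype, sex and depth, among 10420 genes with a mean normalized count of at least 100. For Dll4 they were Atp5s (r = 0.97), Srfbp1 (r = 0.97) and Ppm1d (r = 0.96), and for Notch1 Sorbs2 (r = 0.97), Mdc1 (r = 0.95) and Ppp1r10 (r = 0.94). Dll1 was closest to Tubgcp4, Mlec and Iqce, and Jag1 to Helq, Yeats2 and Tbl2. Hes1 went with RP24-100B13.1, Rpf1 and Sec62, and Atoh1 with Bccip, Dcbld1 and Tra2b. Near to Cdx1 were Ubl5 and Tmem234, to Cdx2 Nt5c2, Hilpda and Mul1, and to Klf4 Nsmce3, Aldh3b1 and Slc35f2. Over these 27 genes r was between 0.90 and 0.99, and since each is the highest of many correlations over few mice, the values are descriptions. None of the 9 genes was among the 3 nearest to another.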

How the data were processed

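RNA-seq libraries of colonic mucosa from 9 mice were analyzed, 1 per mouse. Per the methods, BGISEQ-500 reads went through BOWTIE2, RSEM and DESeq2, and versions and genome build are not given in the sources used here. The authors deposited signal values for 54146 genes. These are counts per gene over the size factor of the mouse. GENCODE M21 (GRCm38) held 52480 of the identifiers in the same version. The smallest positive value of a column was taken as 1 read, and 100.0% of positive values were whole multiples of it (tolerance 0.01 reads). Totals were 13523500 to 17885918 reads on genes, and their precision covers counting error only.

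Genotype was tested with limma 3.58.1 (R 4.3.3, trended variances). The scale was log2(normalized count + 1), which understates changes of low genes. Genes needed 10 normalized counts in 4 mice, which left 14410, and p-values were Benjamini-Hochberg adjusted over these. Alternatives were edgeR 4.0.16 or DESeq2 1.42.0 on recovered reads, other scalings, filters, thresholds and pseudocounts, females only, sex or mitochondrial share as covariate, the replicate block and each mouse left out. A loess correction (span 0.5) for GC content and exon length was added after seeing the data. Marker sums were compared by exact permutation (126 splits).

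The 9 genes, the lists and the tests were chosen with earlier results of these data known. Named genes are the 9 members, the list genes that passed, the 3 genes most correlated with each member, and further list and marker genes chosen after their values were seen. A few genes that meet this rule are not reported here. Replicate numbers name different mice, whose deviations from the group means correlated at -0.18, 0.066, 0.046 and 0.14 for numbers 1 to 4, so they were not used as pairs. Nothing in the labels says whether mice shared a litter or preparation day, and p-values measure the spread between these mice.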

Additional observations from a re-analysis of the deposited data

Results flagged for a closer look

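In 84 groups of 4 or 5 mice, 7 held a mouse far from the others, where chance gives about 4.2. None of the 7 was a value of the 9 genes. ApcMin/+ replicate 4 stood apart in the summed normalized count of absorptive colonocyte markers, at 270298 against 127655 to 146184, and of small intestine markers, at 1932 against 580 to 890. ApcMin/+; p16cis/cis replicate 4 stood apart in Reg4, the 1 marker of deep crypt secretory cells, at 87046 against 18976 to 27365. The same mouse had the lowest sum of crypt base stem cell markers, at 9294 against 11765 to 12047, the highest endothelial sum, at 290 against 154 to 166, and the highest Nkx2-2 count, at 174 against 68.2 to 79.8. Itch was 1951 in ApcMin/+ replicate 5 against 1558 to 1653 in the other ApcMin/+ mice. Without that mouse, Itch still passed.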

How the results depend on the processing

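Over 198 values of the 9 genes under alternatives, 184 kept their direction and their side of the threshold. Some of these could not turn, since Bonferroni adjustment and the changed filters on low values leave the fold change as it was. For genes other than Dll4, keeping their side means that they still did not pass. Direction turned in 6 of the 198. With the mitochondrial share as a covariate Atoh1 came to 0.15, Cdx2 to 0.23 and Klf4 to 0.38 on the log2 scale. Among females alone Notch1 came to -0.14 and Cdx2 to 0.070, and after the GC content and exon length correction Cdx1 came to -0.043. The cause was not tested. Of 9 members, 0 passed with Bonferroni adjustment or among females (1 at an unadjusted p under 0.05 in each). With the mitochondrial share 0 passed (0 unadjusted). With a 2-fold threshold 0 passed, since no member had a change over 2-fold. Without 1 mouse, 1 to 2 passed. Over all genes 2434 passed, 27 with Bonferroni, 501 past 2-fold, 959 among females, 1437 with sex as a covariate, 0 with the mitochondrial share (798 unadjusted), and 1177 to 3488 without 1 mouse. The lowest counts came without ApcMin/+; p16cis/cis replicate 4 (1177), ApcMin/+; p16cis/cis replicate 2 (1242), ApcMin/+ replicate 3 (1317) and ApcMin/+ replicate 2 (1357). Of the Notch pathway list 8 passed, 0 with Bonferroni, past 2-fold or with the mitochondrial share, 3 among females or with sex, 5 with no filter on low values, and 3 to 9 without 1 mouse. Of the lineage factors 8 passed, 0 with Bonferroni or the mitochondrial share, 2 among females, 5 past 2-fold, and 6 to 9 without 1 mouse. With the replicate number as a block, 5 members passed (Dll1, Dll4, Notch1, Hes1 and Klf4). The numbers pair no mice, and the block drops ApcMin/+ replicate 5, which has no partner. Of the 3 tools, limma, edgeR and DESeq2 each passed 1 member, Dll4.

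With 5 and 4 mice, the intervals of Dll1, Notch1, Hes1, Klf4, Atoh1 and Cdx2 still include changes of over 1.5-fold, so their difference is not settled at this number of mice.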

Other observations

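Ratios within a mouse are independent of its size factor and are given as values with no test. The ratio of Hes1 to Atoh1 normalized counts was 0.54 to 1.47 in ApcMin/+ mice (1.00 ± 0.36, SD, n = 5) and 0.67 to 0.88 in ApcMin/+; p16cis/cis mice (0.79 ± 0.085, SD, n = 4), so the second genotype lay inside the range of the first. The ratio of Cdx1 to Cdx2 was 1.73 to 3.45 in ApcMin/+ mice (2.48 ± 0.64, SD, n = 5) and 3.16 to 3.63 in ApcMin/+; p16cis/cis mice (3.41 ± 0.23, SD, n = 4). ApcMin/+ replicate 1 alone brought the ranges to overlap, since the other 4 ApcMin/+ mice had at most 2.70. The ratio of Dll4 to Dll1 had close means, 1.26 ± 0.37 (SD, n = 5) and 1.27 ± 0.16 (SD, n = 4). Per 100 endothelial marker counts there were 77.3 to 165 Dll4 counts in ApcMin/+ mice and 121 to 266 in ApcMin/+; p16cis/cis mice.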
